A study of Homo sapiens with 6 samples.

Results

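Pyruvate carrier, pyruvate dehydrogenase complex and its kinases and phosphatase were examined as 10 genes, MPC1, MPC2, PDHA1, PDHB, DLAT, DLD, PDK1, PDK2, PDK3 and PDP1. They were taken by exact symbol from a deposited table of 20289 genes, in which each symbol stood on a single row. RNA had been sequenced from SW480, an established human cell line derived from a colon adenocarcinoma. The MUCP1-FLAG group, 3 libraries, is labelled as overexpressing the microprotein MUCP1 with a FLAG tag. The LV-NC group, 3 libraries, is labelled wild type and treated with the control LV-NC only. Culture was the same for both, in serum-supplemented L-15. No promoter, clone, passage or batch is given, and the libraries are called biological replicates with nothing more said of their origin. The p-values thus reflect only how these libraries vary, which may be technical. In bulk RNA, fewer cells of a kind and less RNA per cell cannot be told apart.

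Pyruvate made by glycolysis enters the mitochondrial matrix through a carrier built from MPC1 and MPC2. There the pyruvate dehydrogenase complex turns it into acetyl-CoA, which feeds the citric acid cycle. The kinases PDK1 to PDK4 switch the complex off by phosphorylating its E1 alpha chain, and the phosphatases PDP1 and PDP2 remove that phosphate. Many tumour cells send much of their pyruvate to lactate, so the balance at this step is often studied in cancer.

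Library totals ran from 17333329 to 23282604 counts in MUCP1-FLAG and from 18867369 to 21534908 in LV-NC. No row of the table was named MUCP1, so the overexpression was not checked here. Of 11 colon epithelial markers, KRT8 averaged 3687 CPM in MUCP1-FLAG and 3615 CPM in LV-NC (CPM, counts scaled to a common library size), whereas CDX1 had no count and KRT20 and LGR5 were near 0. EPCAM, CDH1 and VIL1 were lower in MUCP1-FLAG, at 202, 14.9 and 13.25 CPM against 254, 31.2 and 17.5 CPM in LV-NC. KRT19 was higher, at 571 CPM in MUCP1-FLAG and 506 CPM in LV-NC. The marker sum, most of it KRT8 and KRT18, was 6879 to 7057 CPM in MUCP1-FLAG and 6396 to 7072 CPM in LV-NC, and says little of the scarcer markers. The 7 fibroblast markers summed to at most 1.09 CPM in MUCP1-FLAG and 1.3 CPM in LV-NC, with COL1A2, COL3A1 and DCN at 0. The 6 leukocyte markers summed to 7.9 to 10.2 CPM in MUCP1-FLAG and 13.1 to 14 CPM in LV-NC, most of it CD68, with PTPRC at 0, and the 4 endothelial ones to at most 4.17 CPM in MUCP1-FLAG and 3.3 CPM in LV-NC, most of it VWF. CD68 averaged 8.21 CPM in MUCP1-FLAG and 12.6 CPM in LV-NC and was lower (edgeR adjusted p 0.000554). The part of these marker differences in the results was not tested.

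All 10 genes passed the filter on low counts. At an edgeR adjusted p under 0.05, 4 of the 10 were higher in MUCP1-FLAG and none was lower, beside 8.35% higher and 7.71% lower of the 12920 genes tested. DESeq2 called 0 of the 10 lower too, and 0 of the 10 were lower at an unadjusted edgeR p under 0.05. The 4 were MPC2, the 2 chains of the E1 enzyme, PDHA1 and PDHB, and the phosphatase gene PDP1. The rises were small, between 13.1% and 18.0%. The median log2 fold change of the 10 genes was 0.14, and that of all genes tested was −0.004. The 3 values of one group lay wholly above those of the other for 5 of the 10 genes, each time with MUCP1-FLAG above, beside 33.1% of all genes in either direction, 16.6% with MUCP1-FLAG above and 16.4% with it below. The call of PDHA1 was kept in each of the 15 alternative settings, of PDHB in 11, and of MPC2 and PDP1 in 4 each. The 10 genes, and the further lists below, were chosen with earlier results of these data known. Their shares beside those of all genes are thus a description and not an independent test.

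**Figure D1:**
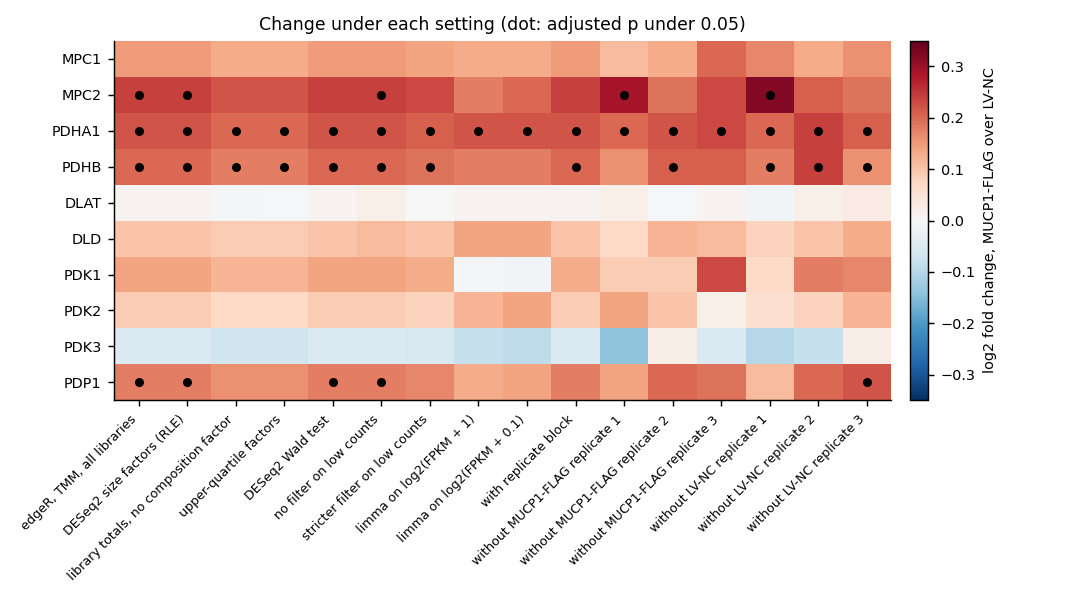
Log2 fold change of MUCP1-FLAG over LV-NC (colour) for each of the 10 genes (rows) under edgeR with all libraries and 15 alternative settings (columns); a dot marks an adjusted p under 0.05. PDHA1 carries a dot in every column, while DLAT, PDK1 and PDK3 change colour between settings.

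**Figure D2:**
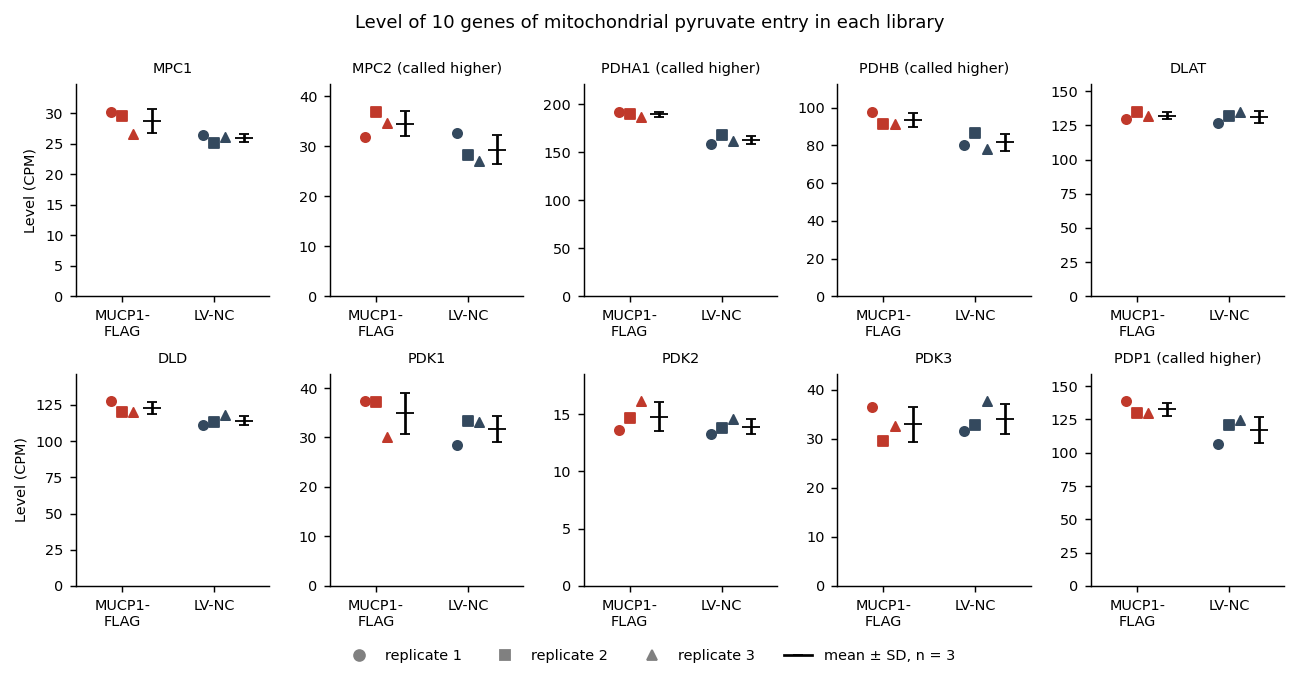
Level of each of the 10 genes in CPM (vertical axes, starting at 0) in the 3 MUCP1-FLAG libraries (red, left) and the 3 LV-NC libraries (dark, right); bars give the mean ± SD. PDHA1 lies between 187 and 192 CPM in MUCP1-FLAG and between 159 and 168 CPM in LV-NC, while the DLAT values of the groups overlap.

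**Figure D3:**
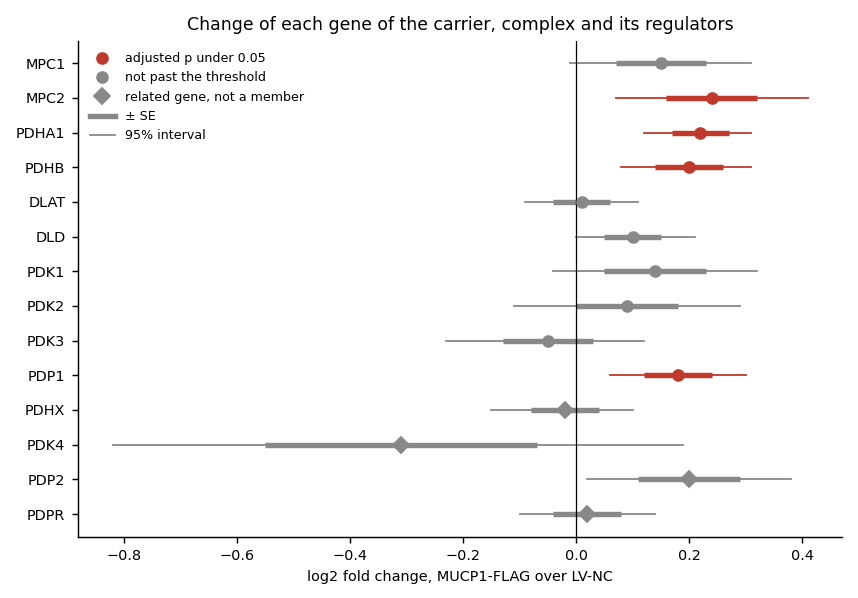
Fitted log2 fold change of MUCP1-FLAG over LV-NC (horizontal axis) for the 10 genes (circles) and 4 related genes (diamonds), with SE (thick bar) and 95% interval (thin bar). MPC2, PDHA1, PDHB and PDP1, in red, passed the threshold, and the interval of DLAT lies on both sides of 0.

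MPC2, one of the carrier's chains, had 31.9, 36.9 and 34.8 CPM in MUCP1-FLAG and 32.6, 28.3 and 27.1 CPM in LV-NC. LV-NC replicate 1 lay above MUCP1-FLAG replicate 1, so the groups overlapped. The log2 fold change was 0.24 ± 0.08 (SE, edgeR adjusted p 0.0477), just under the threshold. It was not called by DESeq2 (adjusted p 0.0741), nor without MUCP1-FLAG replicate 2 (0.22), MUCP1-FLAG replicate 3 (0.142), LV-NC replicate 2 (0.173) or LV-NC replicate 3 (0.096). MPC1, the other chain, had 30.2, 29.5 and 26.5 CPM in MUCP1-FLAG and 26.4, 25.1 and 26.1 CPM in LV-NC. Its groups did not overlap in CPM, though MUCP1-FLAG replicate 3 stood next to the LV-NC values. With a log2 fold change of 0.15 ± 0.08 it did not pass the test (edgeR adjusted p 0.194), and the 95% interval of the change ran from −0.519% to 23.8%. Scaled for length, MPC1 stood above MPC2 in every library, with a ratio of FPKM of 2 ± 0.237 in MUCP1-FLAG and 2.09 ± 0.186 in LV-NC (SD, n = 3 each). MPC2 shares 1258 bases at its start with DCAF6 on the other strand, which averaged 55.1 CPM in MUCP1-FLAG and 49.0 CPM in LV-NC (0.17 ± 0.07 on the log2 scale, edgeR adjusted p 0.0938). Whether reads were counted by strand is unknown here, and the part of shared reads in the result was not tested.

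For the E1 enzyme, which removes carbon dioxide from pyruvate with the help of thiamine pyrophosphate, the mRNAs of both chains rose. PDHA1 encodes the alpha chain, the one the kinases phosphorylate, and lies on chromosome X at 19343893 to 19361705 (+ strand, GRCh38, GENCODE 29). It had 192.3, 189.6 and 187.1 CPM in MUCP1-FLAG and 158.9, 167.9 and 162.3 CPM in LV-NC. The lowest MUCP1-FLAG library stood well above the highest LV-NC library. The means were 190 ± 2.62 CPM in MUCP1-FLAG and 163 ± 4.54 CPM in LV-NC (SD, n = 3 each), a rise of 16.3%, or 0.22 ± 0.05 in log2 fold change (SE, edgeR adjusted p 0.00238). Over the 15 alternative settings the log2 fold change stayed between 0.20 and 0.24 and the adjusted p between 0.000319 and 0.0219. In the authors' deposited table the adjusted p of PDHA1 was 0.000278. There 7.5% of all 20289 genes had one under 0.05, a share that also counts genes too low to be tested here. The annotation holds a processed pseudogene, PDHA1P1, and the end of PDHA1 overlaps MAP3K15, which averaged 2.14 CPM in MUCP1-FLAG and 1.86 CPM in LV-NC.

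PDHB encodes the beta chain of E1 and lies on chromosome 3 at 58427630 to 58433857 (− strand). It had 97.9, 91.3 and 91.6 CPM in MUCP1-FLAG and 80.0, 86.9 and 78.0 CPM in LV-NC. The groups did not overlap, and LV-NC replicate 2 came closest to the MUCP1-FLAG values. PDHB rose by 14.5%, a log2 fold change of 0.20 ± 0.06 (SE, edgeR adjusted p 0.0215), and it missed the threshold when MUCP1-FLAG replicate 1 (0.122) or 3 (0.0653) was left out. It also missed the threshold with limma on FPKM at either pseudocount (limma adjusted p 0.0801 and 0.0785). The authors' deposited table gave PDHB an adjusted p of 0.031. The ratio of PDHA1 to PDHB, in FPKM, was 1.90 ± 0.109 in MUCP1-FLAG and 1.84 ± 0.0736 in LV-NC (SD, n = 3 each), with overlapping values.

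DLAT, the E2 core that passes the acetyl group to coenzyme A on its lipoyl arms, gave overlapping values. It had 130, 134.9 and 131.5 CPM in MUCP1-FLAG and 126.6, 132.2 and 134.6 CPM in LV-NC. The log2 fold change was 0.01 ± 0.05 (SE, edgeR adjusted p 0.91), and the 95% interval of the change ran from −6.15% to 8.2%. Its sign turned when library totals or upper-quartile factors set the scale. PDHX, which anchors E3 to that core and was no member of the 10, had 47.1, 48.3 and 48.2 CPM in MUCP1-FLAG and 47.7, 50.7 and 47.4 CPM in LV-NC, with −0.02 ± 0.06 (edgeR adjusted p 0.845). In FPKM the ratio of DLAT to PDHA1 was 0.347, 0.335 and 0.361 in MUCP1-FLAG and 0.412, 0.384 and 0.412 in LV-NC, so that each MUCP1-FLAG library had less DLAT mRNA per PDHA1 mRNA than any LV-NC library. That of PDHX to DLAT was 0.486 ± 0.00326 in MUCP1-FLAG and 0.494 ± 0.0133 in LV-NC (SD, n = 3 each), with overlapping values. These ratios were not tested.

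DLD, the E3 flavoenzyme that reoxidises the lipoyl arms and also serves other dehydrogenase complexes, had 127.4, 120.2 and 120.4 CPM in MUCP1-FLAG and 111.2, 113.5 and 117.9 CPM in LV-NC. The groups did not overlap, but LV-NC replicate 3 lay within 3 CPM of the lower MUCP1-FLAG values. The log2 fold change of DLD, 0.10 ± 0.05, did not pass the test (edgeR adjusted p 0.187), with a 95% interval of the change from −0.252% to 15.6%. Its end overlaps LAMB1 over 7932 bases on the other strand, and LAMB1 averaged 78.0 CPM in MUCP1-FLAG and 74.5 CPM in LV-NC (0.06 ± 0.05, edgeR adjusted p 0.463).

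The stretch around the transcription start is given here for the E1 genes, which rose, and for DLAT, which was not called, as RefSeq gives it on GRCh38.p14, with 250 bases before and 50 after the start. PDHA1 is chrX:19343677-19343976 (+ strand), PDHB chr3:58433783-58434082 (− strand) and DLAT chr11:112025158-112025457 (+ strand). Capitals mark matches on either strand to CCAAT, the box bound by NF-Y, to GGGCGG, the GC box bound by Sp1, and to ACGTG, the core of a hypoxia response element.
PDHA1: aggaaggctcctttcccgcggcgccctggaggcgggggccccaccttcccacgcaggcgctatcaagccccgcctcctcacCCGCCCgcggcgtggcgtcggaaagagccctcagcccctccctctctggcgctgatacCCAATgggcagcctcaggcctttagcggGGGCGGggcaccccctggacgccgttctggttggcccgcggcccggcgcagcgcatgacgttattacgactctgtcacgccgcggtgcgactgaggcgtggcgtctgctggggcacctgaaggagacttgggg
PDHB: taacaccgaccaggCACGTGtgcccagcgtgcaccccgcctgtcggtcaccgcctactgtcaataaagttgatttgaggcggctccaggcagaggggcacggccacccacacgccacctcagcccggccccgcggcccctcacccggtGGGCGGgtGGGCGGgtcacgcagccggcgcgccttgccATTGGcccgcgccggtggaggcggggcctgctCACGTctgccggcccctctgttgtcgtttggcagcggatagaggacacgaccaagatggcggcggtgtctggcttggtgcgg
DLAT: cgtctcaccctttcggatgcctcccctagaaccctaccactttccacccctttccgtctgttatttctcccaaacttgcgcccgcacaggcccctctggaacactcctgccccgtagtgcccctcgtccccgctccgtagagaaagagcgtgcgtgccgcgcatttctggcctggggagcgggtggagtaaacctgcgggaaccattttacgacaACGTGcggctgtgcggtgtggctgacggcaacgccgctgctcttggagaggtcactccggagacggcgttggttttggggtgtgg
The PDHA1 window held 1 match to CCAAT and 2 to GGGCGG. That of PDHB held 1 and 2 as well, and 3 to ACGTG, of which an overlapping pair lies in the E box CACGTG. The DLAT window held none of the first 2 motifs and 1 match to ACGTG. Of all 35116 windows of this length in the table, 34.6% held CCAAT, 45% GGGCGG, 21.4% ACGTG and 7.26% CACGTG. Neither AAGGTCA, a site of oestrogen-related receptors (3.92% of windows) nor TGACGTCA, the cyclic AMP response element (1.85%), was found in these 3 windows. No window of PDP1, a called gene, was used. Among the other 9 genes, CCAAT and GGGCGG did not mark the called ones alone. Of the genes not called, the MPC1 window held 2 matches to CCAAT and 3 to GGGCGG, and that of PDK3 1 and 2. Of MPC2, which was called, 2 of the 3 windows held no CCAAT. A match describes the letters only.

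None of the 3 kinase genes, nor PDK4, was called by edgeR or DESeq2, and 0 of them had an unadjusted edgeR p under 0.05. PDK1 had 37.3, 37.2 and 30.1 CPM in MUCP1-FLAG and 28.6, 33.3 and 33.1 CPM in LV-NC. MUCP1-FLAG replicate 3 fell among the LV-NC libraries, and the other MUCP1-FLAG libraries stood above them. The log2 fold change of PDK1 was 0.14 ± 0.09 (SE, edgeR adjusted p 0.313), and the 95% interval of the change ran from −3.00% to 24.8%. In FPKM, where the sign of the fitted PDK1 change turned, the levels were 12.8, 10.4 and 8.13 in MUCP1-FLAG and 9.62, 10.3 and 11.1 in LV-NC. The transcript length implied by count and FPKM of PDK1 varied more than for most genes, from 2889 to 3694 bases in MUCP1-FLAG and 2978 to 3224 bases in LV-NC. Its coefficient of variation was 10.2% for PDK1, against a median of 1.97% over 8909 genes. It was also high for PDP2 (16.7%), PDK3 (7.26%), PDK2 (6.75%) and DLD (6.05%), so the FPKM levels, shares and ratios of these 5 genes carry that variation.

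PDK2, an isoform found in most tissues, had 13.6, 14.6 and 16.1 CPM in MUCP1-FLAG and 13.3, 13.8 and 14.6 CPM in LV-NC, with overlap (0.09 ± 0.09, edgeR adjusted p 0.587). PDK3 had 36.5, 29.5 and 32.7 CPM in MUCP1-FLAG and 31.7, 32.8 and 37.6 CPM in LV-NC, also with overlap (−0.05 ± 0.08, edgeR adjusted p 0.729). Of the 10 genes it alone had a negative fold change, which turned positive without MUCP1-FLAG replicate 2 (0.024) or LV-NC replicate 3 (0.023), and its 95% interval ran from −14.7% to 8.95%. PDK4, which fasting and fatty acids induce and which was no member of the 10, was scarce, at 1.45, 1.785 and 1.49 CPM in MUCP1-FLAG and 2.19, 1.99 and 1.73 CPM in LV-NC. Its values overlapped, the change of −0.31 ± 0.24 was not called (edgeR adjusted p 0.425), and its 95% interval, −43.5% to 14.4%, was the widest of the family. Of the summed FPKM of the 4 kinase genes, PDK1 held 45.3% ± 6.52 in MUCP1-FLAG and 45.8% ± 1.65 in LV-NC, and PDK4 held 1.91% ± 0.354 in MUCP1-FLAG and 2.44% ± 0.356 in LV-NC (SD, n = 3 each).

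PDK1 is a textbook target of the hypoxia-inducible factors, and its stretch around the downstream of 2 RefSeq starts, chr2:172555840-172556139 (+ strand, GRCh38.p14), is printed because it carries the core motif. Capitals mark GGGCGG and ACGTG on either strand.
PDK1: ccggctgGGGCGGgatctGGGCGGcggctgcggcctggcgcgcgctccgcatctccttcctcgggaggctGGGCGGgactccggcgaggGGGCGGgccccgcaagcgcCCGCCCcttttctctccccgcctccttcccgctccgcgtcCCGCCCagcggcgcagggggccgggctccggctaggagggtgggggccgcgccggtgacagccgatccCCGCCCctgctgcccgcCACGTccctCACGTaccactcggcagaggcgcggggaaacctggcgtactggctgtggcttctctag
It held 7 matches to GGGCGG and 2 to ACGTG. The other PDK1 window held neither. ACGTG also stood in a PDK2 window, with 2 matches, and in the PDK3 window, with 1. Of all windows 21.4% held it. HIF1A, the oxygen-regulated alpha chain of HIF-1, had 231, 210.7 and 217.5 CPM in MUCP1-FLAG and 177.2, 186.4 and 204.2 CPM in LV-NC, without overlap. It rose (0.21 ± 0.05 SE on the log2 scale, edgeR adjusted p 0.00862). The call was lost on omitting MUCP1-FLAG replicate 1 (0.0778) or LV-NC replicate 2 (0.0509). It was also lost with limma on FPKM at either pseudocount (limma adjusted p 0.0994 and 0.0966). EPAS1, the alpha chain of HIF-2, rose by 0.22 ± 0.05 (edgeR adjusted p 0.00174). HIF alpha chains are controlled mainly as proteins, which were not measured here.

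PDP1, the phosphatase that reactivates the complex, had 138.5, 129.5 and 129.6 CPM in MUCP1-FLAG and 106.4, 120.6 and 124.4 CPM in LV-NC. The groups did not overlap, and LV-NC replicate 1 lay furthest below. The log2 fold change was 0.18 ± 0.06 (SE, edgeR adjusted p 0.0423), a rise of 13.1%. The call held on omitting LV-NC replicate 3. It ended on omitting MUCP1-FLAG replicate 1 (edgeR adjusted p 0.195), 2 (0.0766) or 3 (0.111), or LV-NC replicate 1 (0.139) or 2 (0.0751). The authors' deposited table gave PDP1 an adjusted p of 0.0621, and MPC2 one of 0.116. PDP2, the other phosphatase, had 19.02, 21.85 and 20.56 CPM in MUCP1-FLAG and 17, 18.77 and 17.75 CPM in LV-NC, apart but not called (0.20 ± 0.09, edgeR adjusted p 0.116). PDPR, the regulatory subunit of the phosphatase, had 0.02 ± 0.06 (edgeR adjusted p 0.865), a value that is uncertain because a close duplicate of the gene exists. The summed FPKM of the 4 kinase genes over that of PDP1 and PDP2 was 0.577, 0.547 and 0.509 in MUCP1-FLAG and 0.605, 0.565 and 0.584 in LV-NC. In deposited FPKM the ranges overlapped, since MUCP1-FLAG replicate 1 stood above LV-NC replicate 2. With counts divided by 1 fixed length per gene, the median implied by its FPKM, the ratio was 0.545, 0.554 and 0.529 in MUCP1-FLAG and 0.596, 0.575 and 0.589 in LV-NC, and the ranges were apart. The overlap depends on the length used, which for PDP2 varied by 16.7% between libraries, and neither form was tested. PDHA2, the testis form of E1 alpha, and MPC1L, a relative of MPC1, had 0 counts in every library, where 3 counts correspond to 0.129 to 0.173 CPM.

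Compared per length, the genes of the complex were abundant and the kinases were not. In MUCP1-FLAG the order of mean FPKM was PDHA1 (117 ± 3.07), DLD (103 ± 4.73), PDHB (61.7 ± 2.59), DLAT (40.6 ± 0.586), PDP1 (37.02 ± 1.805), MPC1 (31.4 ± 2.06), MPC2 (15.8 ± 1.14), PDK1 (10.45 ± 2.356), PDK2 (6.61 ± 0.967) and PDK3 (5.43 ± 0.707; SD, n = 3). In LV-NC the order was the same. PDK2 and PDK3 overlapped in each group, and PDHA1 and DLD overlapped in LV-NC, whose PDHA1 mean was 100 ± 4.87 and DLD mean 93.6 ± 3.82 FPKM. All other neighbours in the order had separate ranges. PDHA1 stood above 95% of the tested genes in MUCP1-FLAG and above 94% in LV-NC, and PDK3 above 34.2% in MUCP1-FLAG and 34.6% in LV-NC. The phosphatase gene PDP1 had more mRNA per length than any of its opposing kinases in every library.

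**Figure D4:**
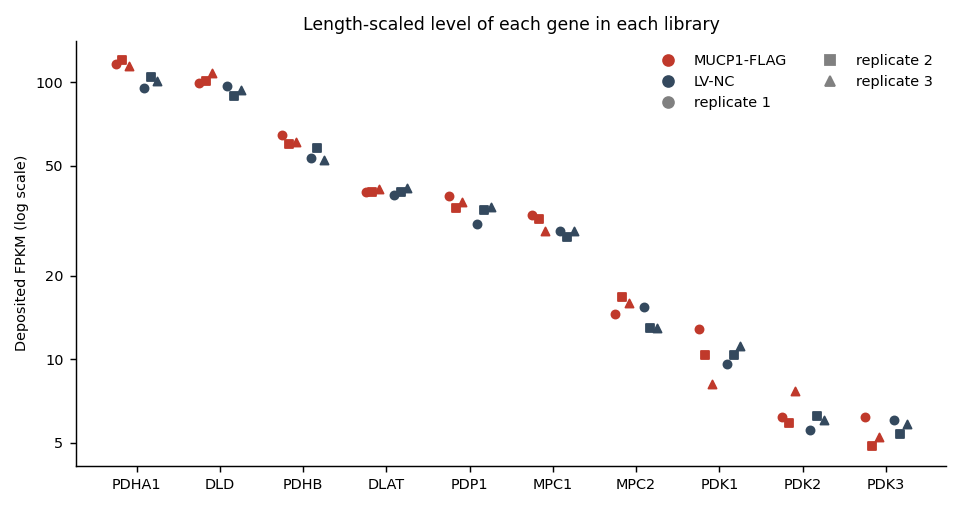
Deposited FPKM of the 10 genes (log axis) in each MUCP1-FLAG library (red) and each LV-NC library (dark), ordered by the MUCP1-FLAG mean. PDHA1 and DLD stand near 100 FPKM, and PDK2 and PDK3 lie between 4.85 and 7.71 FPKM with their ranges overlapping.

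The genes whose profile over the 6 libraries lay closest to each called gene were sought among 9383 other protein-coding genes of at least 10 CPM, by the root mean square difference of log2 CPM after centring each gene. For PDHA1 these were HEXA (0.0104), CDK2 (0.0147) and SNX7 (0.0170). For PDHB they were ERP29 (0.0225), FH (0.0337) and SPAG5 (0.0354). FH is fumarase of the citric acid cycle. For PDP1 they included PRPF4B (0.0154) and SERAC1 (0.0174), and for MPC2 they were COMMD4 (0.0360), AJUBA (0.0427) and PDXK (0.0431). The distance describes likeness in these libraries and was not tested.

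Of 13 tested genes of other routes to and from pyruvate, 5 rose and 1 fell, with a median log2 fold change of 0.12, where all genes tested had 8.35% higher, 7.71% lower and a median of −0.004. For lactate dehydrogenase, which interconverts pyruvate and lactate, the mRNAs of both common chains rose. LDHA had 1009, 1059 and 1018 CPM in MUCP1-FLAG and 840, 841 and 829 CPM in LV-NC (0.30 ± 0.04 SE, edgeR adjusted p 3.56e-05). LDHB had 723, 741 and 723 CPM in MUCP1-FLAG and 598, 609 and 627 CPM in LV-NC (0.25 ± 0.04, edgeR adjusted p 0.000225). In both genes the groups lay far apart, though copies of lactate dehydrogenase genes elsewhere in the genome make the counts less certain. SLC16A1, a carrier of lactate and pyruvate at the cell surface, rose by 0.19 ± 0.05 (edgeR adjusted p 0.00644). The call of SLC16A1 ended on omitting LV-NC replicate 2 (0.0737) and with limma on FPKM (limma adjusted p 0.0602 and 0.0593). ME1 and GPT2, which form pyruvate from malate and exchange it with alanine, rose by 0.38 ± 0.06 and 0.33 ± 0.06 (edgeR adjusted p 8.75e-05 and 0.00045). The call of GPT2 ended with limma on FPKM at either pseudocount (limma adjusted p 0.119 and 0.116). ME2, the mitochondrial malic enzyme, had 49.5, 50.9 and 48.5 CPM in MUCP1-FLAG and 55.7, 55.9 and 57.6 CPM in LV-NC and fell (−0.18 ± 0.06, edgeR adjusted p 0.0365), a call that DESeq2 did not make (0.0535) and that ended on omitting LV-NC replicate 2 (0.108) or MUCP1-FLAG replicate 1 (0.0924), 2 (0.0755) or 3 (0.148). Pyruvate carboxylase, PC, the other entry of pyruvate into the matrix cycle, had −0.04 ± 0.09 (edgeR adjusted p 0.806), and citrate synthase, CS, which uses the acetyl-CoA, 0.12 ± 0.04 (edgeR adjusted p 0.0821).

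The sister complexes share DLD or the design of the complex. Of their 10 tested genes 2 rose and none fell, with a median log2 fold change of 0.08 (8.35% higher and 7.71% lower among all genes). Of the 13 genes of the list, 12 had a row and 10 passed the filter on low counts. In edgeR 0 of these 10 were lower at an unadjusted p under 0.05, and DESeq2 called 0 lower. By contrast, limma on FPKM called 1 lower with either pseudocount. OGDHL, a relative of the E1 of the oxoglutarate complex, had 11.5, 11.6 and 12.2 CPM in MUCP1-FLAG and 7.93, 8.06 and 8.01 CPM in LV-NC, a clear separation (0.55 ± 0.10 SE, edgeR adjusted p 0.000774). OGDH itself had 0.06 ± 0.05 (edgeR adjusted p 0.446) and its E2, DLST, 0.03 ± 0.05 (0.762). GCSH, the lipoyl-bearing protein of the glycine cleavage system, rose by 0.27 ± 0.07 (edgeR adjusted p 0.00833), a call that ended on omitting MUCP1-FLAG replicate 3 (0.057) or LV-NC replicate 2 (0.0513). GCSH also has processed pseudogenes. Of 12 tested genes that supply lipoate, thiamine pyrophosphate or coenzyme A, 1 rose and none fell, with a median of 0.01, so the share that rose was near the 8.35% of all genes. At an unadjusted edgeR p under 0.05, and by DESeq2, 0 were lower, and 1, LIAS, was called lower on omitting LV-NC replicate 1. The gene that rose was PANK1, a pantothenate kinase of coenzyme A synthesis (0.38 ± 0.12, edgeR adjusted p 0.0332; 0.0735 with DESeq2, and on omitting MUCP1-FLAG replicate 1, 0.0698, or 3, 0.226, or LV-NC replicate 2, 0.142). LIAS, lipoate synthase, had 5.16, 6.88 and 5.49 CPM in MUCP1-FLAG and 5.68, 8.67 and 7.54 CPM in LV-NC, overlapping and not called (−0.31 ± 0.16, edgeR adjusted p 0.192).

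Of 13 tested transcription factors, coactivators and deacylases listed as possible regulators of this step, 3 rose and 3 fell. The median log2 fold change was −0.13, beside 8.35% higher and 7.71% lower of all genes. In addition to HIF1A and EPAS1, PPARD, a fatty acid receptor that induces PDK4 in muscle, had 136.8, 131.3 and 132.5 CPM in MUCP1-FLAG and 112.9, 110.8 and 102.6 CPM in LV-NC and rose (0.30 ± 0.05 SE, edgeR adjusted p 0.000434). MYC fell (−0.18 ± 0.04, edgeR adjusted p 0.0071), a call lost on omitting MUCP1-FLAG replicate 3 (0.0519) or LV-NC replicate 2 (0.0747). PPARA, a receptor of the same family as PPARD, had 23.7, 21.7 and 23.4 CPM in MUCP1-FLAG and 31.1, 27.4 and 27.1 CPM in LV-NC and fell by counts (−0.32 ± 0.08, edgeR adjusted p 0.00846; 0.061 on omitting MUCP1-FLAG replicate 2). In deposited FPKM it had the opposite sign, with 4.81 ± 1.13 in MUCP1-FLAG and 4.10 ± 0.68 in LV-NC (SD, n = 3 each), so its direction depends on the unit. PPARG fell (−0.22 ± 0.07, edgeR adjusted p 0.0467), just under the threshold. DESeq2 did not call it (0.0887), and omitting a MUCP1-FLAG library or LV-NC replicate 1 or 2 gave 0.0854 to 0.19. PPARGC1A, the coactivator of mitochondrial genes, was at most 1.04 CPM in MUCP1-FLAG and 0.576 CPM in LV-NC and was not called (0.66 ± 0.41, edgeR adjusted p 0.303).

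**Figure D5:**
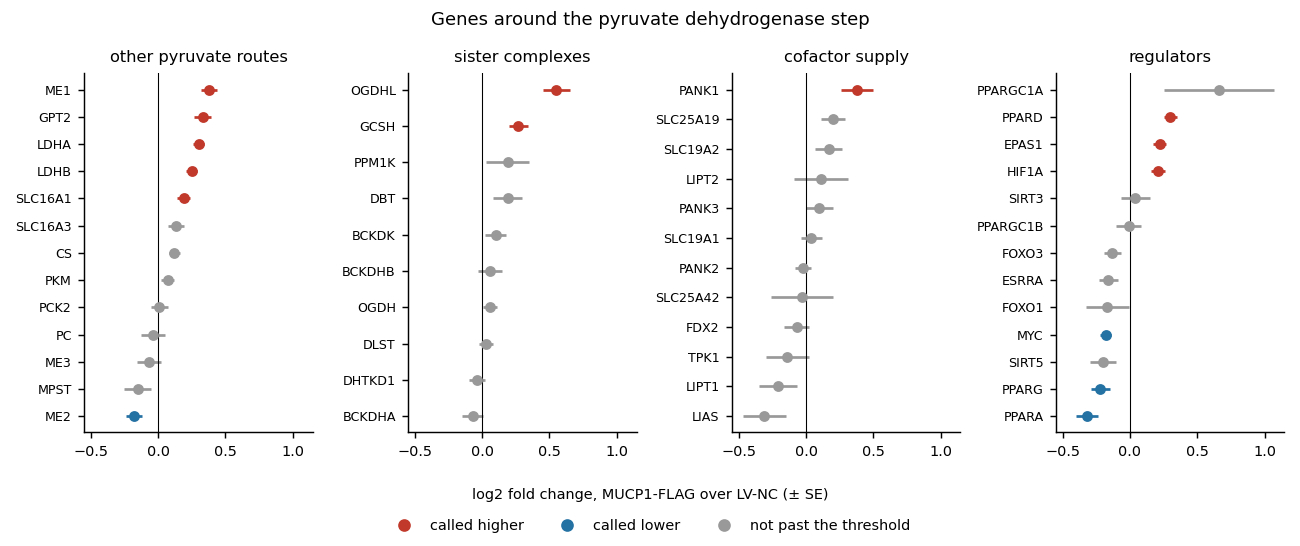
Log2 fold change of MUCP1-FLAG over LV-NC ± SE (horizontal axes) of the tested genes of 4 lists around the pyruvate dehydrogenase step. Of the routes to and from pyruvate 5 genes are called higher (red) and 1 lower (blue), and among the regulators 3 are higher and 3 lower, of which PPARA turns positive in FPKM.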

How the data were processed

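The authors deposited a single table for 6 SW480 libraries, holding unnormalized counts of reads, FPKM, and their own log2 fold change, p-value and adjusted p-value. GRCh38, fastp, HISAT2, featureCounts and DESeq2 are named per the submitters' processing notes, without versions or roles; strand setting, annotation and the test behind the deposited p-values are not given in the sources used here. The counts themselves were tested with edgeR 4.0.16 (R 4.3.3; TMM, filterByExpr with a minimum count of 10, robust quasi-likelihood F test, Benjamini-Hochberg over 12920 genes). A called gene has an adjusted p under 0.05; ± beside a fold change is the standard error. Alternatives used DESeq2 1.42.0, other scalings and filters, limma 3.58.1 on log2(FPKM + 1) and log2(FPKM + 0.1), a replicate block, and each library left out. The tests were tried on simulated data. The 10 genes and the lists were chosen with earlier results of these data known. Named were the 10 genes, 6 related genes and, per further list, every called gene up to 6, with the 3 nearest profiles of each called member (1 is not reported here); OGDH, DLST, PC, CS, LIAS and PPARGC1A were added after their values were seen. Libraries held 17333329 to 23282604 counts. Promoter windows came from RefSeq (9 of 10 genes used, without PDP1).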

Additional observations from a re-analysis of the deposited data

How the results depend on the processing

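No member was called lower in any of the 15 alternative settings, and MPC1, DLAT, DLD, PDK1, PDK2 and PDK3 were called in none. Of the 10 genes, 4 were called higher; 2 were with library totals, upper-quartile factors, the stricter filter or the replicate block, 1 when limma was run on FPKM with either pseudocount, and 1 to 3 with a library left out (1 without MUCP1-FLAG replicate 3; 2 without MUCP1-FLAG replicate 1 or 2 or LV-NC replicate 2). Same-numbered libraries had correlations of deviations of −0.103, 0.229 and −0.044 over 9423 genes, and other-numbered ones ran from −0.171 to 0.200. With 3 libraries per group, each centred on its group, these values cannot decide whether the replicate numbers pair the libraries. The replicate block called 1005 genes higher and 954 lower, against 1079 and 996, and ended the calls of MPC2 (0.0623), PDP1 (0.0587), ME2 (0.0557) and PPARG (0.0622). Over all genes, limma called 514 or 516 higher and 544 or 549 lower, and leaving out a library gave 639 to 1323 higher and 624 to 1213 lower, with the lowest counts without MUCP1-FLAG replicate 3; without LV-NC replicate 2, 671 were higher. Of the list genes, 11 were higher and 4 lower; limma gave 7 and 2 at each pseudocount, DESeq2 2 lower, the replicate block 2 lower, and leaving out a library 7 to 13 higher and 1 to 5 lower. The log2 fold change turned for DLAT to −0.006 (library totals) and −0.004 (upper-quartile factors), with −0.013 to 0.03 when a library was left out; for PDK1 to −0.008 and −0.011, PDP2 to −0.016 and −0.021, PDPR to −0.042 and −0.046 and PPARA to 0.177 and 0.210 with limma on FPKM; and, with a library left out, it ran from −0.14 to 0.024 for PDK3, −0.04 to 0.009 for PDHX and −0.038 to 0.05 for PDPR. With limma on FPKM the calls of MPC2, PDHB, PDP1, HIF1A, SLC16A1, GPT2, PANK1, ME2 and PPARG also ended at either pseudocount. The causes were not tested. The group means of the FPKM ratios moved by less than 1 SD, but with 1 fixed length per gene the group ranges of the kinase to phosphatase ratio (0.543 ± 0.0127 in MUCP1-FLAG, 0.587 ± 0.0105 in LV-NC; SD, n = 3 each) and of DLD to DLAT (2.48 ± 0.122 in MUCP1-FLAG, 2.33 ± 0.0294 in LV-NC) no longer overlapped. Counting error weighs most on the scarcest genes, such as PDK4.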
